A study of Mus musculus with 6 samples.

Results

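The miR-15/16 family of microRNAs was followed in mouse serum that was sequenced with 3 commercial small RNA kits, in 2 libraries per kit. Its 6 members were miR-15a-5p (MIMAT0000526), miR-15b-5p (MIMAT0000124), miR-16-5p (MIMAT0000527), miR-195a-5p (MIMAT0000225), miR-322-5p (MIMAT0000548) and miR-497a-5p (MIMAT0003453). They were picked by these miRBase identifiers from the 788 miRNAs with a read in any library, and all 6 had reads in all 6 libraries. Every library was made from serum RNA of healthy 129/SVj mice, male and female, 2 to 9 months old, and the labels give no engineered allele and no treatment for any group. Blood was drawn under tribromoethanol, the serum was spun a second time to remove cell debris, free hemoglobin was measured by absorbance, and RNA of individual mice was extracted with a miRNeasy column kit. The groups differed in the kit, which was NEBNext Multiplex (New England Biolabs), TruSeq v2 (Illumina) or TailorMix v2 (Seqmatic). The labels number the sera 1 and 2 within each kit and do not say which mouse gave which library, so p-values measure only the spread between these libraries, which may be technical.

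MicroRNAs are short RNAs that guide Argonaute proteins to messenger RNAs, mainly by pairing of the seed near their 5′ end, so that miRNAs with the same seed are grouped as a family with overlapping targets. The miR-15/16 family is known for restraining cell division and survival through targets such as cyclins and the anti-apoptotic gene Bcl2, and the cluster of miR-15a and miR-16-1 is a tumor suppressor in B cells. miR-16 is abundant in blood cells and is often used as a reference in serum and plasma measurements.

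The mature sequences are printed 5′ to 3′ because the members are told apart only by their bases outside the seed, which is in capitals (bases 2 to 8). They were matched by name in the RefSeq table of the mouse genome GRCm38.p6, where all 6 were found.
miR-16-5p: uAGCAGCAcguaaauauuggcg
miR-195a-5p: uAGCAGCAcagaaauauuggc
miR-15a-5p: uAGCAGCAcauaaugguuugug
miR-15b-5p: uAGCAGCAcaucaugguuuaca
miR-322-5p: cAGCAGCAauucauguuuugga
miR-497a-5p: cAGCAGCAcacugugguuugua
All 6 held the seed AGCAGCA. They were chosen as members of a family, and a family is grouped by its seed, so this was no independent finding. Of 1679 mature names in the table, 10 (0.596%) held this seed, and the 4 outside these members, miR-195b, miR-6342, miR-6353 and miR-6419, were not analysed here. Positions below are counted from 1 at the 5′ end, with the base of the first miRNA named given first. miR-15a-5p and miR-15b-5p had the same base at 18 of 22 positions and differed by A12C, G20A, U21C and G22A, so that 3 of their 4 differences were the last 3 bases. miR-16-5p and miR-195a-5p had the same base at 19 of 21 positions, differed by G10A and U11G, and miR-195a-5p was 1 base shorter at its 3′ end. miR-322-5p and miR-497a-5p began with C and the other 4 members with U. The authors kept reads of at least 15 bases and mapped them without mismatches. No stretch shared by a pair of members exceeded 11 bases, so a read of 15 or more bases could not belong to 2 members, whereas miR-195a-5p shared a stretch of 16 bases with miR-195b.

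The members come from 4 places in the mouse genome (build GRCm38, GENCODE M21 annotation). Mir15a (mature at chr14:61632075-61632096, minus strand) and Mir16-1 (chr14:61631936-61631957, minus strand) lie in an intron of Dleu2 with 117 bases between the mature sequences. Mir15b (chr3:69009775-69009796, plus strand) and Mir16-2 (chr3:69009918-69009939, plus strand) lie in an intron of Smc4 with 121 bases between them. miR-16-5p therefore has 2 genes, and its reads cannot be divided between them. Mir497 (chr11:70234730-70234751, plus strand) and Mir195a (chr11:70235062-70235082, plus strand) are 310 bases apart, and Mir322 (chrX:53054306-53054327, minus strand) is the mouse counterpart of human miR-424; the annotation placed none of these 3 inside a host gene.

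Libraries held 165139 to 351758 miRNA reads, out of 5144833 to 26256012 annotated reads, which include the other small RNA classes. Levels are given as reads per 1000000 miRNA reads (RPM) with the SD over 2 libraries, and the 3 counts used as a floor corresponded to 8.53 to 18.2 RPM. No molecular identifiers are described for these reads, so intervals of single libraries (95%, Wilson) cover counting error only. A share of reads in serum does not tell apart how many cells released a miRNA and how much each cell released.

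The family was a small part of the miRNA reads with NEBNext and a larger one with the other kits, and nearly all of it was miR-16-5p. Its 6 members together took 0.442% and 0.405% of miRNA reads for NEBNext, whereas TruSeq gave 3.34% and 2.93% and TailorMix 5.36% and 5.13%. The libraries of the 3 kits did not overlap, and the mean share was 7.40 times as high with TruSeq and 12.4 times as high with TailorMix as with NEBNext. Relative to annotated reads, where the other small RNA classes enter the denominator, the family reached 1961 ± 79.8 reads per 1000000 annotated reads for TailorMix, 944 ± 95.2 for TruSeq and 38.6 ± 1.07 for NEBNext (SD, n = 2 each). Without miR-16-5p, the other 5 members made up 0.228% ± 0.00658 of miRNA reads for TailorMix, 0.119% ± 0.00271 for TruSeq and 0.0352% ± 0.00615 for NEBNext (SD, n = 2 each). The order of the kits was the same with and without miR-16-5p. Without it, the order of TruSeq above NEBNext came from miR-15a-5p. Mean RPM of miR-15b-5p, miR-195a-5p, miR-322-5p and miR-497a-5p was lower with TruSeq, at 0.474 to 0.721 times that with NEBNext.

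**Figure D1:**
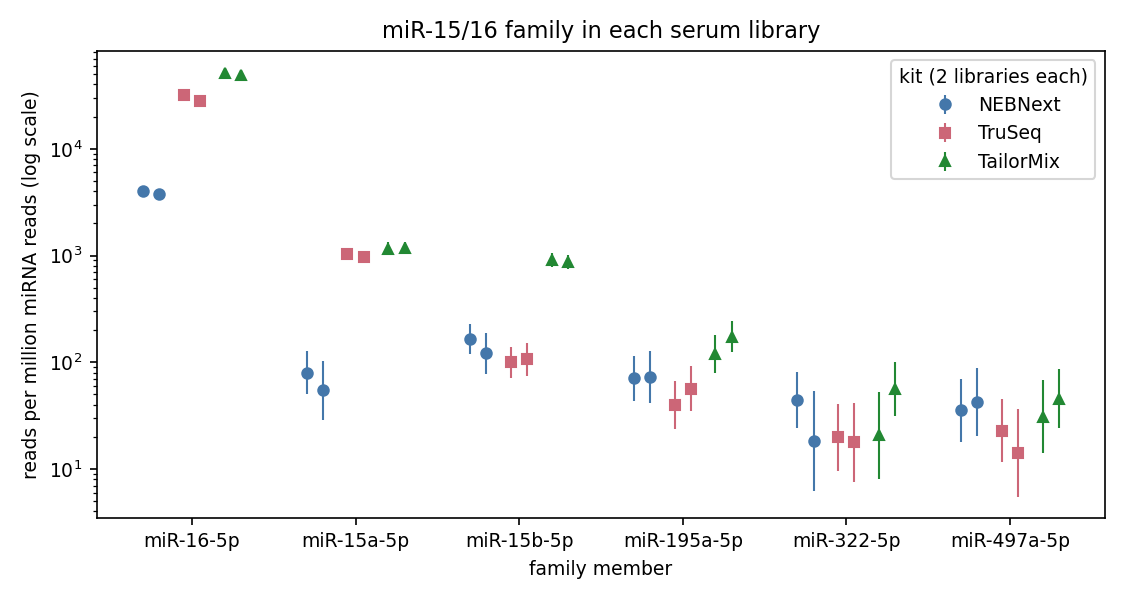
Level of each family member in each of the 6 serum libraries, in reads per 1000000 miRNA reads on a log scale, with 95% Wilson intervals for counting error (hidden by the symbol where narrow). Points of a color are the 2 libraries of a kit: miR-16-5p and miR-15a-5p sit low with NEBNext alone, miR-15b-5p sits high with TailorMix alone, and miR-322-5p and miR-497a-5p lie near the counting limit in all kits.

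miR-16-5p was the most abundant member in every library, with 9944 and 9634 counts for TailorMix, 11322 and 7921 for TruSeq, and 904 and 617 for NEBNext. This corresponded to 51399 and 48930 RPM for TailorMix, 32187 and 28081 RPM for TruSeq, and 4020 and 3736 RPM for NEBNext. Both NEBNext libraries were below all others, and both TailorMix libraries were above all others. Most miRNAs were likewise separated between a given pair of kits. By its level among the miRNAs of a library it took place 49 in both NEBNext libraries, places 8 and 9 with TruSeq, and places 4 and 5 with TailorMix. Its share of the family's own reads was 95.6% ± 0.265 for TailorMix, 96.2% ± 0.270 for TruSeq and 91.7% ± 0.939 for NEBNext (SD, n = 2 each). The second library of each kit lay below the first by 0.071 to 0.20 on the log2 scale, where the counting error (SE) was 0.021 for TruSeq and for TailorMix and 0.075 for NEBNext. The NEBNext difference of -0.11 was less than 2 such errors.

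miR-15a-5p, made from the same primary transcript as miR-16-1, had 225 and 233 counts for TailorMix, 361 and 275 for TruSeq, and 18 and 9 for NEBNext. Its levels were 1163 and 1183 RPM for TailorMix, 1026 and 975 RPM for TruSeq, and 80.0 and 54.5 RPM for NEBNext. It was low with NEBNext alone, and the libraries of the other kits lay close together. The mean RPM with TruSeq was 14.9 times and with TailorMix 17.4 times that with NEBNext, against 7.77 and 12.9 for miR-16-5p. The NEBNext mean of miR-15a-5p rested on 18 and 9 counts (67.3 ± 18.1 RPM, SD, n = 2). How far its factors exceed those of miR-16-5p is therefore uncertain.

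miR-15b-5p, made from the same primary transcript as miR-16-2, had 175 and 172 counts for TailorMix, 35 and 30 for TruSeq, and 37 and 20 for NEBNext. Its levels were 905 and 874 RPM for TailorMix, 99.5 and 106 RPM for TruSeq, and 165 and 121 RPM for NEBNext. TailorMix stood apart, at 6.22 times the mean RPM of NEBNext and 8.64 times that of TruSeq. Both TruSeq libraries were slightly below both NEBNext libraries by RPM, as held for 222 of 360 miRNAs. This direction turned with the TMM scaling used below. The pattern of miR-15b-5p across kits was therefore unlike that of miR-15a-5p, with which it shares the first 11 bases.

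miR-195a-5p, which differs from miR-16-5p at 2 positions and in length, had 23 and 34 counts for TailorMix, 14 and 16 for TruSeq, and 16 and 12 for NEBNext. Its levels were 119 and 173 RPM for TailorMix, 39.8 and 56.7 RPM for TruSeq, and 71.2 and 72.7 RPM for NEBNext. By RPM, TailorMix was highest and TruSeq lowest with no overlap between the kits, a separation that most miRNAs showed between a given pair of kits. TMM scaling turned the direction between TruSeq and NEBNext. Its mean RPM with TruSeq was 0.671 times that with NEBNext, where that of miR-16-5p was 7.77 times as high.

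miR-322-5p had 4 and 11 counts for TailorMix, 7 and 5 for TruSeq, and 10 and 3 for NEBNext. Its levels were 20.7 and 55.9 RPM for TailorMix, 19.9 and 17.7 RPM for TruSeq, and 44.5 and 18.2 RPM for NEBNext. The libraries within NEBNext and within TailorMix differed by more than the kits did, and the NEBNext and TruSeq libraries overlapped. miR-497a-5p, from the cluster of miR-195a, had 6 and 9 counts for TailorMix, 8 and 4 for TruSeq, and 8 and 7 for NEBNext. Its mean level was 38.4 ± 10.4 RPM for TailorMix, 18.5 ± 6.05 RPM for TruSeq and 39.0 ± 4.82 RPM for NEBNext (SD, n = 2 each). Both miRNAs held so few counts that the 95% intervals of their log2 fold changes, given below, were over 2 units wide.

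The order of the members differed between kits. Since their lengths differ by at most 1 base, RPM values were compared between members without a correction for length. With NEBNext, miR-16-5p was followed by miR-15b-5p, then by miR-195a-5p and miR-15a-5p, whose libraries overlapped, and then by miR-497a-5p and miR-322-5p, whose libraries overlapped too. With TruSeq and with TailorMix, miR-16-5p was followed by miR-15a-5p, miR-15b-5p and miR-195a-5p, each separated from the next in both libraries, and miR-322-5p and miR-497a-5p again overlapped.

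Kits were compared over 360 miRNAs, those that reached 4 counts in 2 or more libraries (all 6 members did), by edgeR's quasi-likelihood test with TMM scaling and Benjamini-Hochberg adjustment. TMM assumes that most miRNAs change little between libraries. A miRNA was called at an adjusted p under 0.05. Between any pair of kits most miRNAs were called, so this assumption was doubtful here. A count of called members therefore has to be read against the share of all miRNAs called. TMM gave the TruSeq libraries factors of 0.685 and 0.735 and the NEBNext libraries 1.47 and 1.51, so a fold change from this fit is not the ratio of the RPM values above. With total miRNA reads as the library size, the median log2 fold change over all miRNAs moved by -0.95 for TruSeq versus NEBNext. It moved by -0.65 for TailorMix versus NEBNext and by 0.41 for TailorMix versus TruSeq. With annotated reads the median moved by 0.53, 1.34 and 0.72 in the same order.

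Between TruSeq and NEBNext, miR-15a-5p and miR-16-5p were higher with TruSeq, and for the other 4 members no difference passed the test. edgeR called these 2 of 6 members, both higher with TruSeq, where it called 68.6% of the 360 miRNAs, 26.1% higher and 42.5% lower. With total miRNA reads as library size the 94 higher and 153 lower calls of all miRNAs became 61 and 191, and with annotated reads 134 and 128. The log2 fold change was 4.91 for miR-15a-5p (SE 0.23, 95% interval 4.44 to 5.38, adjusted p = 1.51e-19) and 4.03 for miR-16-5p (SE 0.11, 95% interval 3.80 to 4.26, adjusted p = 6.8e-26). These were places 13 and 21 from the top among the 360 miRNAs, and both stayed called in all 14 alternative fits. miR-15b-5p had a log2 fold change of 0.56 (95% interval -0.025 to 1.15, adjusted p = 0.0821), and it was called in 5 of 14 alternatives, among them without TailorMix library 1 (0.67, adjusted p = 0.0377) and without TailorMix library 2 (0.77, adjusted p = 0.0222). Its sign turned with total miRNA reads as library size. The values were 0.47 for miR-195a-5p (95% interval -0.41 to 1.34, adjusted p = 0.342), 0.25 for miR-322-5p (-1.09 to 1.60, adjusted p = 0.763) and 0.044 for miR-497a-5p (-1.19 to 1.28, adjusted p = 0.97), and the sign of each turned under that scaling as well. Annotated reads as library size moved the median of all miRNAs by 0.53. miR-15b-5p (1.23, adjusted p = 7.6e-05) and miR-195a-5p (1.13, adjusted p = 0.0209) were then called. The median over the 6 members was 0.51, against -0.525 over all 360 miRNAs.

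Between TailorMix and NEBNext, 4 members were higher with TailorMix. They were miR-15a-5p with a log2 fold change of 4.72 (SE 0.23, adjusted p = 1.02e-18), miR-16-5p with 4.34 (SE 0.11, adjusted p = 1.55e-26), miR-15b-5p with 3.25 (SE 0.22, adjusted p = 2.6e-15) and miR-195a-5p with 1.66 (SE 0.37, adjusted p = 0.000207). All 4 stayed called in all 14 alternative fits. edgeR called 77.5% of all miRNAs in this comparison, 39.2% higher with TailorMix and 38.3% lower. The 141 higher and 138 lower calls became 108 and 172 with total miRNA reads and 188 and 64 with annotated reads. miR-322-5p had a log2 fold change of 0.84 (95% interval -0.43 to 2.12, adjusted p = 0.215), which reached 1.65 without TailorMix library 1, where it held 4 counts (adjusted p = 0.0347). miR-497a-5p had 0.64 (95% interval -0.54 to 1.82, adjusted p = 0.309), and its sign turned with total miRNA reads as library size. Annotated reads as library size moved the median of all miRNAs up by 1.34. Both members were then called, at 2.23 for miR-322-5p (adjusted p = 0.00122) and 2.01 for miR-497a-5p (adjusted p = 0.00279). The median over the 6 members was 2.46, against -0.235 over all miRNAs.

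Between TailorMix and TruSeq, miR-15b-5p was higher with TailorMix and miR-15a-5p was not. The log2 fold change was 2.69 for miR-15b-5p (SE 0.21, 95% interval 2.26 to 3.12, adjusted p = 2.59e-13), which stayed called in all 14 alternative fits. For miR-15a-5p it was -0.19 (95% interval -0.50 to 0.12, adjusted p = 0.263). Without TruSeq library 2 it was -0.36 and called (adjusted p = 0.0339), while both scalings by total reads turned its sign, and with annotated reads it was called as higher (0.54, adjusted p = 0.00109). miR-195a-5p was higher by 1.20 (SE 0.37, adjusted p = 0.0049) and miR-16-5p by 0.31 (SE 0.097, adjusted p = 0.00469). Both calls rested on single libraries and on the method, since 8 of 14 alternative fits kept the call of miR-16-5p and 10 of 14 that of miR-195a-5p. miR-16-5p was no longer called without TruSeq library 2 (0.085, adjusted p = 0.309) or without TailorMix library 2 (0.27, adjusted p = 0.108). miR-195a-5p was no longer called without TruSeq library 1 (0.85, adjusted p = 0.145) or without TailorMix library 2 (0.81, adjusted p = 0.171). miR-322-5p and miR-497a-5p both had a log2 fold change of 0.59, with 95% intervals of -0.71 to 1.89 and -0.64 to 1.83. Without TailorMix library 2 the value of miR-322-5p was -0.37. The 3 called members stood beside 70.6% of all miRNAs called, 41.7% higher with TailorMix and 28.9% lower, and without TailorMix library 2 only miR-15b-5p was called. The 150 higher and 104 lower calls of all miRNAs became 175 and 89 with total miRNA reads and 187 and 78 with annotated reads. The median over the 6 members was 0.59, against 0.50 over all miRNAs, so that the value of miR-16-5p lay below that of the typical miRNA.

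**Figure D2:**
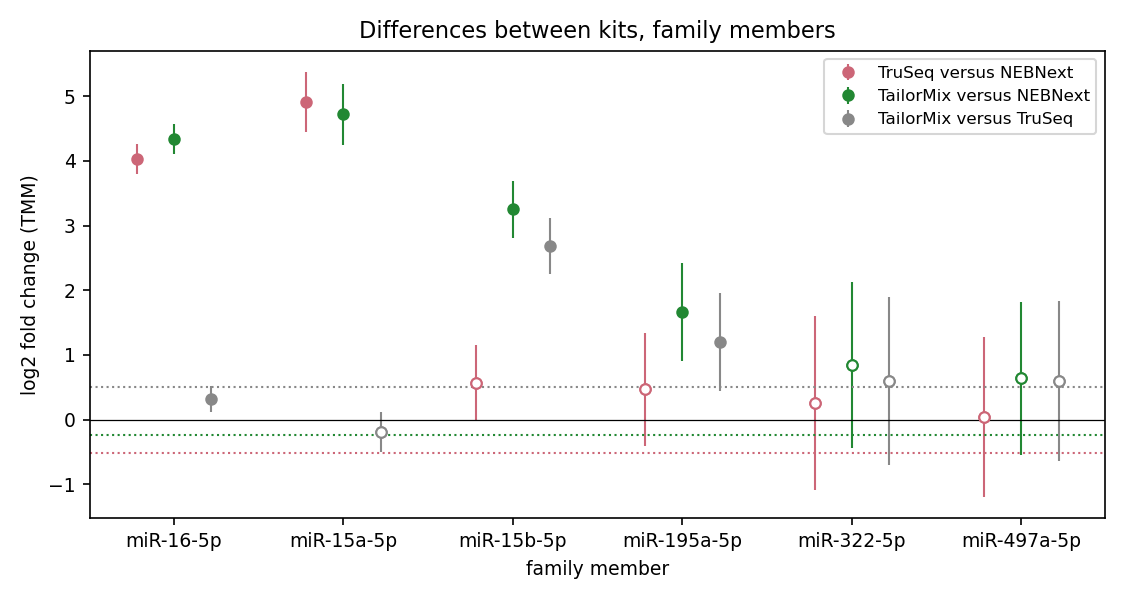
Log2 fold change of each member between kits (edgeR, TMM) with its 95% interval; filled points passed an adjusted p under 0.05, open points did not, and dotted lines mark the median of all 360 miRNAs in each comparison by color. miR-16-5p and miR-15a-5p differ from NEBNext in both other kits, while miR-15b-5p differs from both other kits with TailorMix.

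**Figure D3:**
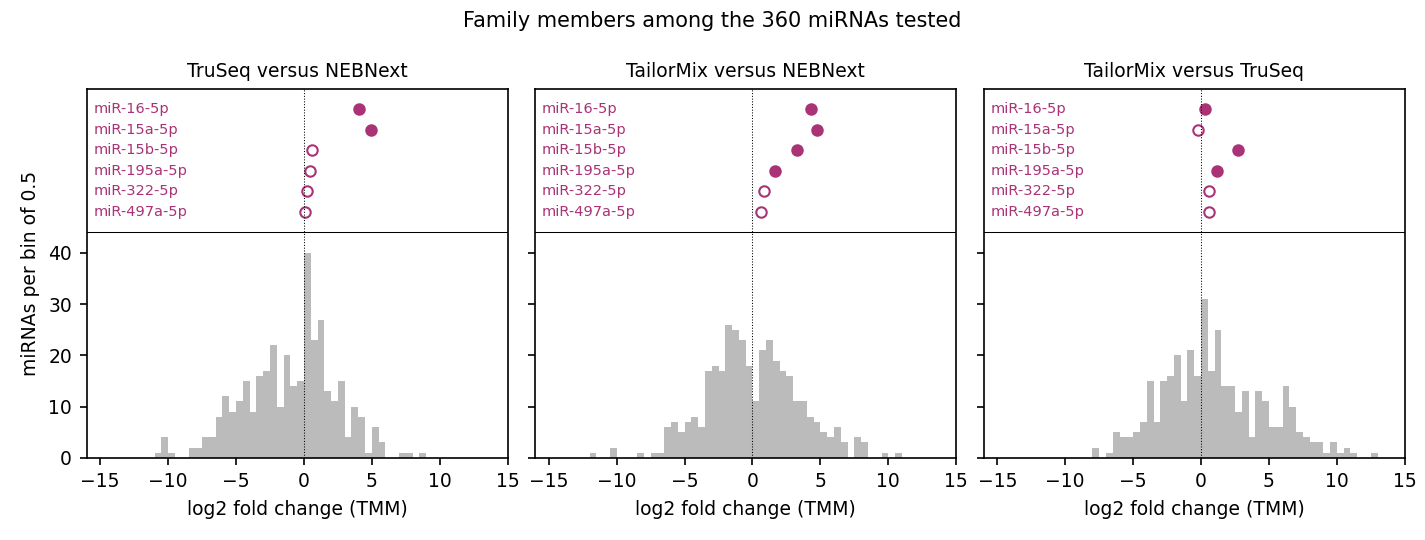
Number of miRNAs per bin of 0.5 in log2 fold change (grey bars, 360 miRNAs) for each pair of kits, with the family members as points above (filled where called). In the 2 comparisons with NEBNext, miR-15a-5p and miR-16-5p lie on the upper side of the distribution, at places 13 and 21 and at places 32 and 35 from the top. For TailorMix versus NEBNext, miR-15b-5p lies on the upper side too, at place 56. All other values in these 2 comparisons lie nearer the middle.

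Within a library, the ratio of a pair of members needs no library size, so it is free of the choice of scaling. Of the reads of miR-15a-5p and miR-15b-5p together, miR-15a-5p took 32.7% (95% Wilson interval 21.8% to 45.9%) and 31.0% (17.3% to 49.2%) for NEBNext. It took 91.2% (88.0% to 93.6%) and 90.2% (86.3% to 93.0%) for TruSeq, and 56.3% (51.4% to 61.0%) and 57.5% (52.7% to 62.3%) for TailorMix. miR-15b-5p was thus the more abundant of the pair with NEBNext, a small minority with TruSeq, and nearly equal with TailorMix. The interval of each library lay apart from those of the other kits. Stated as a difference of log2 fold changes, miR-15a-5p exceeded miR-15b-5p by 4.35 between TruSeq and NEBNext and by 1.47 between TailorMix and NEBNext.

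miR-16-5p and miR-195a-5p, which end in nearly the same bases, also diverged between kits. The libraries held 432 and 283 reads of miR-16-5p per read of miR-195a-5p for TailorMix, 809 and 495 for TruSeq, and 56.5 and 51.4 for NEBNext. miR-195a-5p was thus far less rare beside miR-16-5p with NEBNext than with either other kit. Per read of miR-15b-5p there were 56.8 and 56.0 reads of miR-16-5p for TailorMix, 323 and 264 for TruSeq, and 24.4 and 30.9 for NEBNext, so here TruSeq stood apart.

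As log2 ratio to miR-16-5p, miR-15a-5p kept within 1 unit across kits, at -5.42 ± 0.068 for TailorMix, -4.91 ± 0.087 for TruSeq and -5.87 ± 0.32 for NEBNext (SD, n = 2 each). The ratio of miR-497a-5p, by contrast, went from -6.64 ± 0.25 for NEBNext to -10.38 ± 0.45 for TailorMix and -10.71 ± 0.34 for TruSeq (SD, n = 2 each). Between NEBNext and TailorMix this shift was that of miR-16-5p, whose mean went from 3878 to 50164 RPM. The mean of miR-497a-5p itself was 39.0 RPM with NEBNext and 38.4 RPM with TailorMix. For miR-15a-5p, miR-15b-5p and miR-195a-5p none of the 15 groupings of 6 libraries into pairs gave a larger F ratio than the grouping by kit (two-sided exact permutation test, p = 0.0667, which is the lowest value this design can reach, or 0.0889 adjusted over the 4 ratios tested). For miR-497a-5p the exact p was 0.133 (0.133 adjusted). All 4 ratios tested share miR-16-5p as denominator, which itself differed between kits. The tests are therefore not independent of each other and say little about the other members alone. The ratio of miR-322-5p was not tested because 1 NEBNext library held 3 counts.

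**Figure D4:**
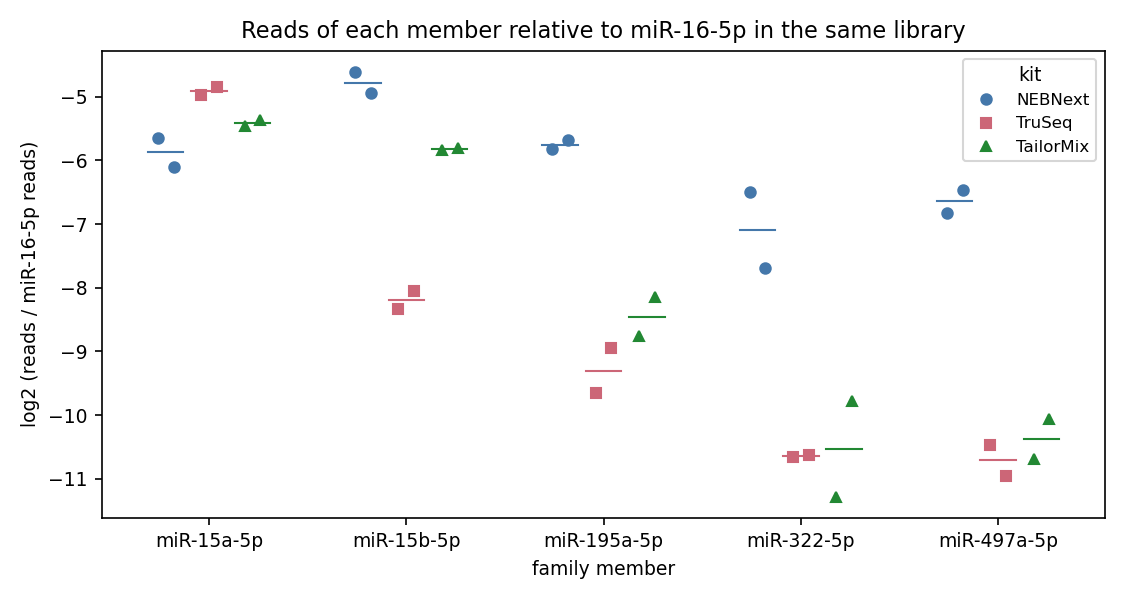
Log2 ratio of the reads of each other member to those of miR-16-5p in the same library (points, 2 per kit; lines, mean of the kit). miR-15a-5p varies least between kits and has its lowest mean with NEBNext. The mean of each other member is highest with NEBNext and lowest with TruSeq.

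To find the miRNAs whose pattern over the 6 libraries was most like that of miR-16-5p, log2 CPM values from the TMM-scaled counts were centered on their own mean and the root mean square difference was taken, for each of the 359 other miRNAs tested. miR-15a-5p was at place 2 with 0.321, next to MIMAT0004899, known here by identifier only, with 0.319, where the median of all was 2.34. The other members followed far behind, with miR-15b-5p at place 48 (1.44), miR-195a-5p at place 63 (1.57), miR-322-5p at place 101 (1.79) and miR-497a-5p at place 111 (1.87). This measure describes 6 libraries that differ mainly by kit.

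Markers of cell types that could add miRNAs to serum also differed between kits, by identifiers fixed for 6 miRNAs. The red blood cell miRNA miR-451a made up 0.164% and 0.147% of miRNA reads for TailorMix, 0.0566% and 0.0631% for TruSeq, and 2.91% and 3.04% for NEBNext. miR-144-3p, of the same cluster, was at 0.0109% and 0.00965% for TailorMix, 0.338% and 0.343% for TruSeq, and 0.115% and 0.111% for NEBNext. The red blood cell markers thus did not move together, since miR-451a was highest with NEBNext and miR-144-3p with TruSeq, and neither had the order of the family. Their sum lay between 0.156% and 0.175% for TailorMix, between 0.395% and 0.406% for TruSeq, and between 3.02% and 3.15% for NEBNext. miR-223-3p, abundant in myeloid cells and platelets, followed the order of the family, with 0.517% and 0.491% for TailorMix, 0.157% and 0.143% for TruSeq, and 0.0947% and 0.0860% for NEBNext. The liver miRNA miR-122-5p was at 1.81% in both TailorMix libraries, at 0.0233% and 0.0177% for TruSeq, and at 4.01% and 4.09% for NEBNext. The identifiers of miR-486a-5p and miR-126a-3p, both usually abundant in serum, had no entry in any of the 6 lists used here. The lists may be incomplete for them, so they were not analysed here and no level is given. The part of blood or liver cells in the levels of the family was not tested.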

How the data were processed

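The deposited miRNA counts were made by the authors from adaptor-trimmed reads (Cutadapt 1.8.1) of at least 15 bases, which were mapped without mismatches (Bowtie 1.1.2) to GRCm38 and annotated by position with miRBase release 20. The counts were not normalized. A miRNA that was not listed for a library was taken as 0. How reads on the 2 genes of miR-16-5p were assigned is not given in the sources used here. The chi-square per degree of freedom of the 2 libraries of a kit was 1.70 (TailorMix), 19.45 (TruSeq) and 2.41 (NEBNext). The cause of this spread was not tested. The fit described below estimated spread over all 6 libraries together, so the higher TruSeq value had no term of its own. Both libraries of a kit entered n because the labels give each its own entry.

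Counts were tested with edgeR 4.0.16 (R 4.3.3), by glmQLFit and glmQLFTest on all 6 libraries with kit as the only term, in 3 contrasts. The SE of a log2 fold change was derived from its F statistic. DESeq2 1.42.0, other library sizes, other filters on low counts, 4-library fits, a replicate block and single libraries left out were alternatives. Ratios, Wilson intervals and exact permutation tests used scipy 1.17.1, numpy 2.4.6 and pandas 2.3.3 in Python 3.11.15, and the scripts were tested on simulated counts. The miRNAs named were the 6 members, those with the pattern nearest to miR-16-5p, and a list of cell type markers taken by identifier. The members and lists were chosen with earlier results of these data known. Opposite arms, other miRNAs of the clusters and other miRNAs with the same seed were not analysed here, since no table pairing their identifiers with names was used.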

Additional observations from a re-analysis of the deposited data

How the results depend on the processing

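Of 249 alternative values of the members' log2 fold changes, 217 kept their direction and side of the threshold, 12 changed sign, 10 kept their sign and gained a call, and 10 kept it and lost one; 1 of the 12 also gained a call. With annotated reads as library size, the members called rose from 2 to 4 for TruSeq versus NEBNext, from 4 to 6 for TailorMix versus NEBNext and from 3 to 4 for TailorMix versus TruSeq. Of all 360 miRNAs, 262, 252 and 265 were then called in the same order, against 247, 279 and 254 in the main fit. For TailorMix versus TruSeq the number of members fell from 3 to 1 without a filter on low counts and with DESeq2. All miRNAs called were then 243 without the filter and 204 with DESeq2, against 254 in the main fit. The members called also depended on single libraries, as described above. With total miRNA reads as library size, log2 fold changes of TruSeq versus NEBNext became -0.504 for miR-15b-5p, -0.592 for miR-195a-5p, -0.795 for miR-322-5p and -1.01 for miR-497a-5p, that of TailorMix versus NEBNext became -0.0027 for miR-497a-5p, and that of TailorMix versus TruSeq became 0.228 for miR-15a-5p (0.540 with annotated reads, adjusted p = 0.00109 by edgeR). Without a filter miR-497a-5p gave -0.012 for TruSeq versus NEBNext. With single libraries left out, TruSeq versus NEBNext ranged from -0.308 to 0.817 for miR-322-5p and from -0.443 to 0.243 for miR-497a-5p, and TailorMix versus TruSeq from -0.370 to 1.30 for miR-322-5p. These 2 members held 3 to 11 counts per library. The family's share of miRNA reads was 0.464%, 3.88% and 6.22% (NEBNext, TruSeq, TailorMix) once the most abundant miRNA was left out of the total. miR-497a-5p was not tested with a minimum of 10 counts. The cause of these changes was not tested. Differences between the libraries numbered 1 and 2 were nearly uncorrelated between kits (correlations 0.163, -0.033 and 0.052). Such values cannot tell whether a number stands for the same serum in each kit, since other spread between libraries could hide a shared difference. With the replicate block edgeR called 232, 250 and 235 of 360 miRNAs, against 247, 279 and 254, and 2, 4 and 3 members, as without it.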
